A study of Mus musculus with 6 samples.

Results

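The NF-kB genes described here were measured in mouse embryonic fibroblasts (MEF), which are connective-tissue cells cultured from embryos. They are the 10 of 23842 genes in the deposited count table whose symbol was Rela, Relb, Rel, Nfkb1, Nfkb2, Nfkbia, Nfkbie, Tnfaip3, Birc3 or Icam1, and each symbol matched 1 row. Total RNA had been sequenced from 3 libraries of NGLY1-/- MEF, called knockout here, and 3 libraries of wild-type MEF, all of the C57BL/6 strain and untreated, in high-glucose medium with serum. NGLY1 is the cytosolic enzyme that removes N-linked glycans from misfolded glycoproteins, and the comparison asks what changes without it. The labels do not give the knockout allele, the age of the embryos or whether the libraries of a group came from separate embryos, and p-values therefore reflect only how these libraries vary, which may be technical.

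NF-kB is a family of dimeric transcription factors. Rela (p65), Relb and Rel (c-Rel) encode the subunits with an activation domain, and Nfkb1 and Nfkb2 encode precursors that are shortened to the DNA-binding partners p50 and p52. In resting cells the dimers are held in the cytoplasm by IkB proteins such as those of Nfkbia (IkBα) and Nfkbie (IkBε). In the canonical route, cytokine or pathogen receptors activate the IKK kinase, IkB is degraded and dimers of p65 or c-Rel enter the nucleus. In the non-canonical route, stabilised NIK kinase leads to shortening of the Nfkb2 product and release of dimers of RelB and p52. Targets of NF-kB include its own inhibitors, the ubiquitin-editing enzyme of Tnfaip3 (A20), the ubiquitin ligase of Birc3 (cIAP2) and the adhesion molecule of Icam1, which binds leukocyte integrins. In fibroblasts the pathway is known for the production of chemokines and cytokines.

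Binding sites of NF-kB, called kappaB sites, are known from the promoters of several of these genes, and the letters of such sites are shown here because the group holds both the factor and its targets. RefSeq (GRCm38.p6) gave sequence before an annotated start for 8 of the 10 genes, in 11 windows of 250 bases. They were searched on both strands for the kappaB consensus, a motif of 10 letters, and for GGAAATTCC, which can lie inside a match of the first. The second motif was chosen after these sequences had been read. At least 1 of the motifs was found in 8 of the 11 windows and in 6 of the 8 genes, while Rela and Birc3 had no match in theirs. The consensus was in 7 of the windows and GGAAATTCC in 3. Among all 32851 windows of the same length in the RefSeq table, 7.25% held the kappaB consensus, 0.286% held GGAAATTCC and 7.38% held either. Some genes had several windows, and those of Nfkb2 overlap in part, so windows are not independent units. A match is a description of the letters and not evidence of binding.

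The whole window is printed for Nfkbia and Icam1, 2 genes that were lower in the knockout libraries, and for Nfkbie, which was higher. Capitals mark the matches.
Nfkbia, chr12:55492648-55492897, minus strand: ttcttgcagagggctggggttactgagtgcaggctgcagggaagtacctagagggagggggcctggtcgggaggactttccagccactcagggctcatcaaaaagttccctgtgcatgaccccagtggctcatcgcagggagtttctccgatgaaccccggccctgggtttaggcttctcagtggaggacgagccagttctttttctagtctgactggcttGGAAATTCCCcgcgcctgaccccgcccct
Nfkbie, chr17:45555450-45555699, plus strand: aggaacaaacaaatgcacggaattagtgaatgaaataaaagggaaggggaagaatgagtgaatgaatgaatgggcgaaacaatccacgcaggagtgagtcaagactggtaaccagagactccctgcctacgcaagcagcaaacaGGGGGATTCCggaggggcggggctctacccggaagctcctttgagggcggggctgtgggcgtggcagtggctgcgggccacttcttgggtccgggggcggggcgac
Icam1, chr9:21015690-21015939, plus strand: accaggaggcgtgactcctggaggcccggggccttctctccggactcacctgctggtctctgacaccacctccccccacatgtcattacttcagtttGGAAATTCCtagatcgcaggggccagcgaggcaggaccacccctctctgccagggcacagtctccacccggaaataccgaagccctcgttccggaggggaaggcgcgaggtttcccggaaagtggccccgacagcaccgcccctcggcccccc

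For Rel, Nfkb2 and Tnfaip3, only 30 bases that hold a match are shown.
Rel, chr11:23771041-23771070, minus strand: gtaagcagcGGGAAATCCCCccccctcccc
Nfkb2, chr19:46304689-46304718, plus strand: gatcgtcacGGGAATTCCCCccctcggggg
Tnfaip3, chr10:19015411-19015440, minus strand: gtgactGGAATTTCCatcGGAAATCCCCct
The runs in Rel and Nfkb2 each hold overlapping matches of the consensus, and that of Tnfaip3 holds GGAAATTCC and then the consensus, both read on the opposite strand. In Nfkbia and Icam1 the letters GGAAATTCC are the same, and they lie 29 to 21 bases before the start of Nfkbia and 153 to 145 bases before that of Icam1.

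Libraries held 27323577 to 37841558 counts, of which the 10 genes took 20255 to 24426 in the knockout and 13331 to 17656 in the wild-type group. Ngly1 itself was not different (14.6 ± 3.11 CPM in the knockout and 14.6 ± 2.94 CPM in the wild-type libraries, SD, n = 3 each; CPM, the count relative to the scaled library size). The count does not tell which exons the reads came from and so does not check the genotype, and directions rest on the labels. Ribosomal RNA genes took 0.208% to 3.73% of the counts in the knockout and 1.45% to 2.82% in the wild-type libraries. The 8 macrophage markers in the table summed to 2.62 to 2.96 CPM in the knockout and 2.67 to 3.88 CPM in the wild-type libraries, mostly from Cd68. Ptprc, Lyz2 and Aif1 had under 10 counts over all 6 libraries, while Spi1 had 1 knockout and 23 wild-type counts and Csf1r 7 and 22, each with all knockout libraries below in CPM. Fcer1g went the other way, with 24 knockout and 11 wild-type counts and overlapping ranges. The 7 endothelial markers summed to 7.53 to 9.58 and 7.10 to 9.36 CPM, mostly from Egfl7, and within them Kdr was higher (1.93-fold) while Pecam1 had 2 knockout and 27 wild-type counts and Esam 8 and 37. Tek had 53 knockout and 23 wild-type counts and did not pass. The 5 epithelial markers summed to 0.701 to 1.53 and 1.87 to 2.62 CPM, and of these Krt8 (4 and 104 counts) and Cdh1 (25 and 75 counts) were lower and Krt18 did not pass. Krt8 and Cdh1 passed the filter on low counts only through the wild-type libraries, so their calls are a description. Epcam (11 and 2 counts) and Cldn4 (2 and 14 counts) did not pass that filter and were not tested. The 3 lymphocyte markers in the table summed to 17.3 to 18.6 CPM in the knockout and 1.21 to 2.63 CPM in the wild-type libraries, nearly all of it from the kinase gene Lck (18.0 and 1.83 CPM on average). The 12 fibroblast markers summed to 3768 to 4319.7 and 6120.3 to 6885 CPM. Col1a2 had the highest level and was 1.31-fold lower. Vim (2.57-fold), S100a4 (7.59-fold), Thy1 (3.11-fold), Pdgfra (1.96-fold) and Pdgfrb (1.71-fold) were lower by more. Dcn was 4.603-fold higher, and Col1a1, Col3a1 and Postn did not pass. Lum and Fap had under 10 counts over all libraries. Markers apart from the top genes were named after their values were seen.

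Of the 10 NF-kB genes, 5 were higher in the knockout libraries (Relb, Nfkbie, Nfkb2, Birc3 and Rela), 3 were lower (Icam1, Rel and Nfkbia) and 2 did not pass the test (Nfkb1 and Tnfaip3). The test was edgeR's quasi-likelihood test with Benjamini-Hochberg adjustment over all 15039 genes tested, at an adjusted p of 0.05. It called 60.9% of all tested genes, 30.7% higher and 30.2% lower, so 8 calls among 10 genes are not far from the background. The median log2 fold change was 0.31 over the 10 genes and -0.04 over all tested genes. All 10 genes passed the filter on low counts, Icam1 only through its wild-type libraries. The CPM ranges of the 2 groups did not overlap for 8 of the 10, with 5 above and 3 below, beside 67.3% of all tested genes (33.8% above and 33.5% below). The higher count was 4 without knockout replicate 1 or when scaled by library totals only and 6 without wild-type replicate 3, and the lower count was 2 without knockout replicate 1 or 2, without wild-type replicate 1 or 2 and with no low-count filter. In bulk RNA, a different share of cells and a different level per cell cannot be told apart.

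**Figure D1:**
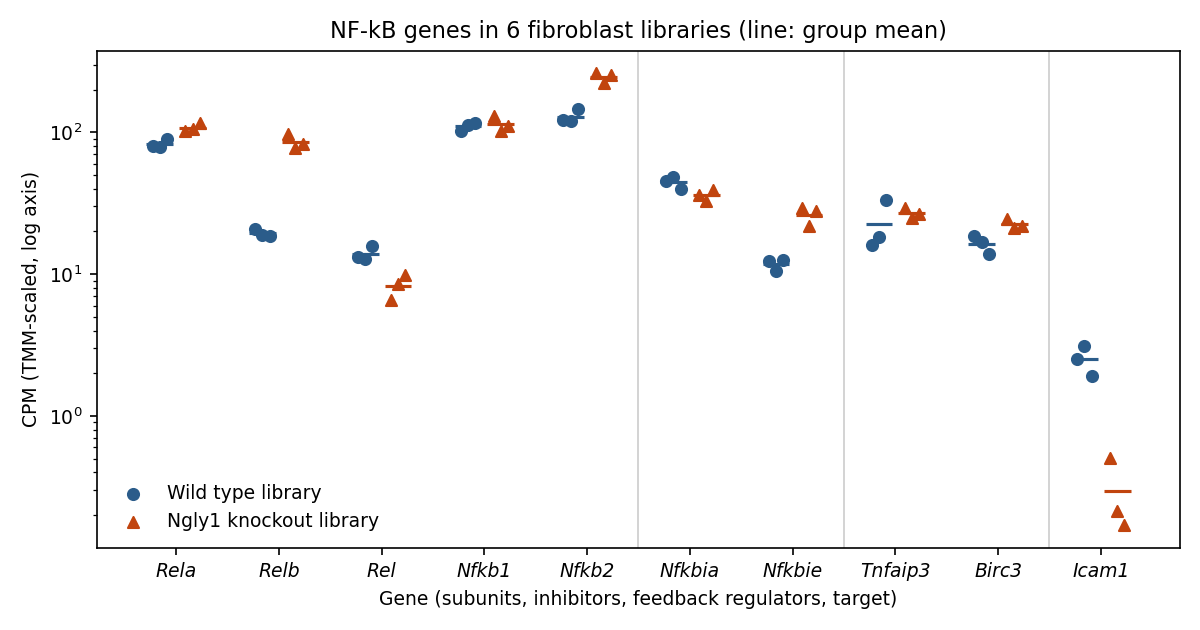
CPM of the 10 genes (log axis) in each of 3 wild-type libraries (circles) and 3 knockout libraries (triangles), with lines at the group means. The groups are farthest apart for Relb (85.6 against 19.5 CPM on average) and Icam1 (0.295 against 2.51 CPM), and they overlap for Nfkb1 and Tnfaip3.

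Among the subunits, Relb (gene ID 19698; chromosome 7, 19606217 to 19629438 in GRCm38) changed most. Its level was 97.3, 77.0 and 82.6 CPM in the knockout libraries and 20.7, 18.9 and 18.7 CPM in the wild-type libraries. Every knockout library lay far above every wild-type library. The log2 fold change was 2.14 ± 0.12 (SE), a 4.40-fold rise (adjusted p = 3.24e-07), and it stayed between 2.05 and 2.22 when each library was left out in turn. Nfkb2 (gene ID 18034; chromosome 19, 46300994 to 46312400), which encodes the p100 precursor of RelB's partner p52, had 261, 224 and 254 CPM in the knockout and 122, 119.9 and 145 CPM in the wild-type libraries. Those ranges did not overlap, and Nfkb2 rose 1.91-fold (log2 fold change 0.93 ± 0.11, adjusted p = 5.11e-05). Its annotated range overlaps the noncoding gene 4833438C02Rik by 2045 bases and the protein-coding gene Psd by 316 bases. These had 609 and 447 counts over the knockout libraries, against 25190 for Nfkb2, and 1208 and 250 over the wild-type libraries, against 13610. No strand setting for the counting is known here, and reads of the shared bases may belong to any of these genes.

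Rela (gene ID 19697; chromosome 19, 5637442 to 5648134) encodes the main activating subunit of the canonical route. It had 102, 105 and 116 CPM in the knockout libraries and 80.1, 79.0 and 89.1 CPM in the wild-type libraries. The groups did not overlap, but the rise was small, 1.30-fold (log2 fold change 0.38 ± 0.09, adjusted p = 0.00576). Rel (gene ID 19696; chromosome 11, 23736847 to 23770969), the subunit best known from lymphoid cells, went the other way, with 6.58, 8.53 and 9.81 CPM in the knockout and 13.1, 12.8 and 15.8 CPM in the wild-type libraries. It fell 1.67-fold (log2 fold change -0.74 ± 0.17, adjusted p = 0.00388). Nfkb1 (gene ID 18033; chromosome 3, 135584655 to 135691969), the source of p50, had 129, 103 and 111 CPM in the knockout and 103, 112 and 117 CPM in the wild-type libraries. These ranges overlapped, and the log2 fold change of 0.05 ± 0.11 did not pass (adjusted p = 0.701). Its sign turned to -0.07 when libraries were scaled by their totals only, a scaling that shifted the median of all genes by -0.12.

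Compared per kilobase of the longest coding transcript, the order of the subunits differed between the groups. This depends on the length used. By mean CPM, not divided by length, the order was Nfkb2, Nfkb1, Rela, Relb and Rel in both groups. Relb then lay below Nfkb1 in the knockout libraries too (85.6 against 114 CPM on average). In the wild-type libraries the levels were 33.6 ± 3.65 CPM per kilobase for Nfkb2, 30.5 ± 2.04 for Rela, 26.9 ± 1.72 for Nfkb1, 8.81 ± 0.508 for Relb and 1.86 ± 0.217 for Rel (SD, n = 3). Nfkb2 and Rela overlapped there (31.2 to 37.8 and 29.1 to 32.8), and Rela lay just above Nfkb1 (25.0 to 28.4). In the knockout libraries Nfkb2 stood at 64.0 ± 5.11, Rela at 39.6 ± 2.64, Relb at 38.8 ± 4.75, Nfkb1 at 27.8 ± 3.34 and Rel at 1.11 ± 0.218 CPM per kilobase. Relb and Rela could not be separated in that group (34.8 to 44.1 and 37.5 to 42.5), whereas Relb lay above Nfkb1 in every library.

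Expressed as a share of the 5 subunits, which does not depend on library scaling, Relb made up 24.2%, 22.1% and 21.4% in the knockout libraries and 9.64%, 8.77% and 7.73% in the wild-type libraries. The means were 22.6% ± 1.47 and 8.71% ± 0.958 (SD, n = 3), a difference of 13.9 percentage points. The exact two-sided permutation test gave p = 0.1, the smallest that 3 libraries against 3 allow. The share of Nfkb2 was 37.4% ± 0.487 against 33.0% ± 1.34, while the shares of Rela (23.2% ± 2.21 against 29.99% ± 0.276), Nfkb1 (16.2% ± 0.963 against 26.5% ± 1.19) and Rel (0.654% ± 0.148 against 1.83% ± 0.0887) were smaller in the knockout libraries. The share of each of the 5 had ranges that did not overlap between the groups. The shares of a library add up to the whole, so a larger Relb share makes the others smaller. The 5 shares are therefore not separate results, and those of Rela and Nfkb1 were smaller although their own levels were not lower. These shares are of RNA and do not measure protein or dimers.

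**Figure D2:**
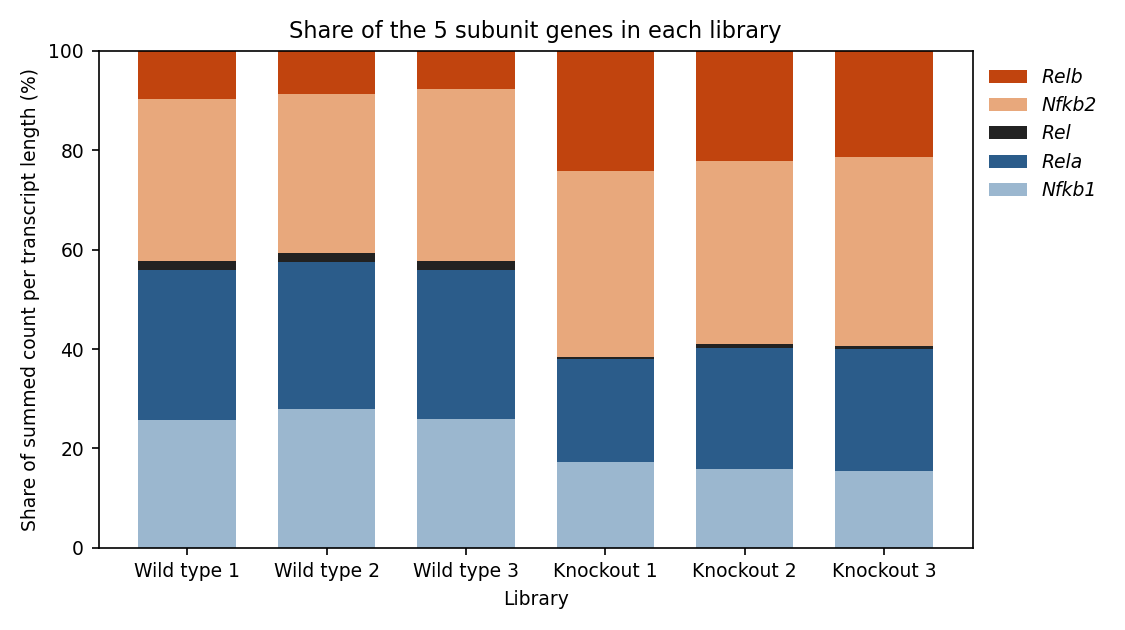
Stacked bars of the share (%) of each subunit gene in the summed count per transcript length, by library. The Relb segment takes 7.73% to 9.64% in the wild-type and 21.4% to 24.2% in the knockout libraries.

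The inhibitors went in opposite directions. Nfkbia (gene ID 18035; chromosome 12, 55489409 to 55492647), encoding the fast-resynthesised inhibitor IkBα, had 36.1, 32.6 and 39.1 CPM in the knockout libraries and 45.6, 48.1 and 40.1 CPM in the wild-type libraries. The highest knockout library lay just under the lowest wild-type library. Nfkbia fell 1.24-fold (log2 fold change -0.31 ± 0.11, adjusted p = 0.0337), and the call was lost without knockout replicate 1 or 2 (adjusted p = 0.0824 and 0.162), without wild-type replicate 1 or 2 (0.0803 and 0.153) and with no low-count filter (0.0539). Over all alternatives the adjusted p of Nfkbia ran from 0.00208, without both libraries numbered 3, to 0.162. Nfkbie (gene ID 18037; chromosome 17, 45555700 to 45563169), encoding IkBε, had 29.2, 21.9 and 27.8 CPM in the knockout and 12.3, 10.6 and 12.6 CPM in the wild-type libraries. The groups were well apart, and Nfkbie rose 2.23-fold (log2 fold change 1.15 ± 0.14, adjusted p = 6.87e-05).

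Set against the subunit that IkBα mainly holds, the ratio of Nfkbia to Rela per kilobase was 0.610, 0.534 and 0.583 in the knockout libraries and 0.979, 1.05 and 0.775 in the wild-type libraries. All 3 knockout libraries lay below all 3 wild-type libraries. The means were 0.575 ± 0.0384 and 0.934 ± 0.142 (SD, n = 3; exact two-sided permutation p = 0.1, the smallest possible).

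The other members of the IkB group in the table were inhibitors and nuclear cofactors. Of 7 tested, 4 were higher (all tested genes: 30.7%) and 0 lower by edgeR (0 lower also at an unadjusted p under 0.05, in the DESeq2 test and in limma-voom). Nfkbib, encoding IkBβ, had 22.9, 22.9 and 36.6 CPM in the knockout and 8.90, 9.53 and 9.51 CPM in the wild-type libraries, with a log2 fold change of 1.56 ± 0.19 (adjusted p = 7.28e-05). Nfkbid, encoding the nuclear protein IkBNS, had 50, 23 and 48 counts against 2, 0 and 0, a ratio of 63.3 with a 95% exact counting interval of 17.2 to 529. Both wild-type counts were in replicate 1, so without it that group had 0. Nfkbiz (IkBζ, a cofactor that turns on secondary response genes) and Bcl3 (a nuclear partner of p50 and p52) had log2 fold changes of 1.16 and 0.88 and both passed. The Nfkbid row passed the low-count filter only through its knockout libraries. Relb, Nfkbib, Nfkbid and Bcl3 all lie on chromosome 7, of whose tested genes 36.9% were higher and 21.4% lower, with a median log2 fold change of 0.16. The part of the chromosome in these results was not tested.

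The feedback regulators were less clear. Tnfaip3 (gene ID 21929; chromosome 10, 19000910 to 19015410) had 29.3, 24.7 and 26.5 CPM in the knockout libraries and 16.05, 18.4 and 33.6 CPM in the wild-type libraries. Wild-type replicate 3 lay above all knockout libraries and the other wild-type libraries below them. The log2 fold change of 0.25 ± 0.25 did not pass (adjusted p = 0.412). Without wild-type replicate 3 it was 0.65 and passed (adjusted p = 0.000128, within 0.000128 to 0.8699 over all alternatives), so this 1 library decides the call. Birc3 (gene ID 11796; chromosome 9, 7847468 to 7873205) had 24.3, 21.0 and 21.9 CPM in the knockout and 18.5, 16.9 and 13.8 CPM in the wild-type libraries. The groups were apart, and Birc3 rose 1.36-fold (log2 fold change 0.45 ± 0.13, adjusted p = 0.0149). Birc3 no longer passed when knockout replicate 1 was left out (adjusted p = 0.0526) or libraries were scaled by totals only (0.0825), and over all alternatives its adjusted p was 0.00494 to 0.0825.

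The neighbours of Birc3 fell while Birc3 rose. Of the 790 tested genes of chromosome 9, 49.7% were lower and 14.7% higher, with a median log2 fold change of -0.43. The part of the chromosome in the Birc3 and Icam1 results was not tested. The 3 nearest tested genes on either side of Birc3 were Gm10709, Tmem123, Birc2, Yap1, 9230110C19Rik and Cep126, and all 6 were lower, with log2 fold changes of -1.56, -0.37, -0.84, -1.03, -1.26 and -2.96. Gm10709 (9, 9 and 11 knockout counts) and Cep126 (3, 7 and 15) passed the low-count filter only through the wild-type libraries. Both had to differ, so the count of 6 is no support here. Birc2, 10336 bases away, encodes cIAP1, the close relative of the Birc3 product that keeps NIK low in resting cells. It had 22.5, 21.2 and 20.5 CPM in the knockout and 41.5, 41.5 and 31.4 CPM in the wild-type libraries and fell 1.78-fold (adjusted p = 0.000312). Reads could be exchanged between these paralogs where their sequences are alike.

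Icam1 (gene ID 15894; chromosome 9, 21015940 to 21028814) showed the largest difference of the 10 genes, and it was a decrease. Knockout libraries gave 17, 7 and 6 counts, and wild-type libraries 102, 121 and 52. All knockout libraries were far below all wild-type libraries, at 0.501, 0.213 and 0.169 CPM against 2.51, 3.11 and 1.90 CPM. Icam1 fell 8.46-fold (log2 fold change -3.08 ± 0.43, adjusted p = 0.000162). It passed the low-count filter only through the wild-type libraries, so its call is a description. With no low-count filter the log2 fold change was -3.05. Without knockout replicate 1, which holds 17 of the 30 knockout counts, the log2 fold change was -3.68 (adjusted p = 0.000421; 2.42e-10 to 0.00158 over all alternatives). Icam1 was already low in the wild-type libraries, the lowest of the 10 genes per kilobase (0.988 ± 0.238 CPM per kilobase, SD, n = 3). Some low-count markers of other cell types also had fewer counts in the knockout libraries. Among them were Krt8 (4 against 104 counts), Pecam1 (2 against 27) and Spi1 (1 against 23). Other low-count markers had more, among them Tek (53 against 23 counts), Fcer1g (24 against 11) and Epcam (11 against 2). The part of other cell types in the Icam1 result was not tested.

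The genes around Icam1 went different ways. Mrpl4, the next tested gene before it, stood at 0.07 ± 0.11 on the log2 scale (adjusted p = 0.606) and Dnmt1 at -0.01 ± 0.09 (adjusted p = 0.927), while S1pr2 was lower (-0.77 ± 0.11). On the other side, Icam5, a relative best known from neurons, was higher, with knockout counts of 38, 35 and 64 and wild-type counts of 22, 5 and 3 (log2 fold change 2.28 ± 0.56, adjusted p = 0.00569; 3.43 without wild-type replicate 1). Icam5 passed the low-count filter only through the knockout libraries, so its call is a description. Zglp1 and Fdx1l had log2 fold changes of -0.17 and 0.13 that did not pass. Icam4, 617 bases from Icam1, had 2 counts in all. Of 7 other genes of the ICAM family, its relative Vcam1 and the leukocyte integrins, 3 were tested, with 2 higher and 1 lower. Of all tested genes, 30.7% were higher and 30.2% lower, and 3 genes are too few to set against those shares. Vcam1, the other cytokine-induced adhesion molecule of mesenchymal cells, rose from 36.7, 42.7 and 49.6 CPM in the wild-type libraries to 151, 113 and 131 CPM in the knockout libraries (log2 fold change 1.61 ± 0.14, adjusted p = 7.79e-06). Itgb2, the beta chain of the leukocyte integrins that bind ICAM-1, was lower (log2 fold change -1.24 ± 0.22), while Itgal and Itgam, its partner chains, had under 10 counts in every library.

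**Figure D3:**
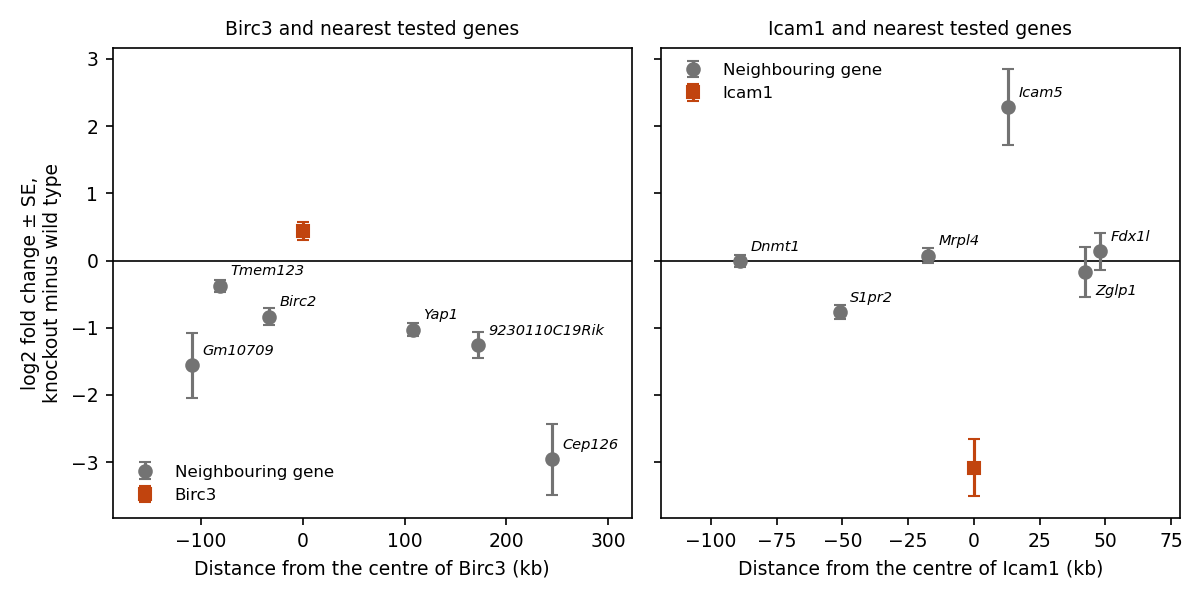
Log2 fold change ± SE of Birc3 and Icam1 (squares) and of their nearest tested neighbours (circles) against distance in kb from the centre of each gene. All 6 neighbours of Birc3 lie below 0 while Birc3 lies at 0.45. Icam1 lies at -3.08 beside Mrpl4 at 0.07 and Icam5 at 2.28. Gm10709, Cep126 and Icam1 passed the low-count filter only through the wild-type libraries, and Icam5 only through the knockout libraries.

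**Figure D4:**
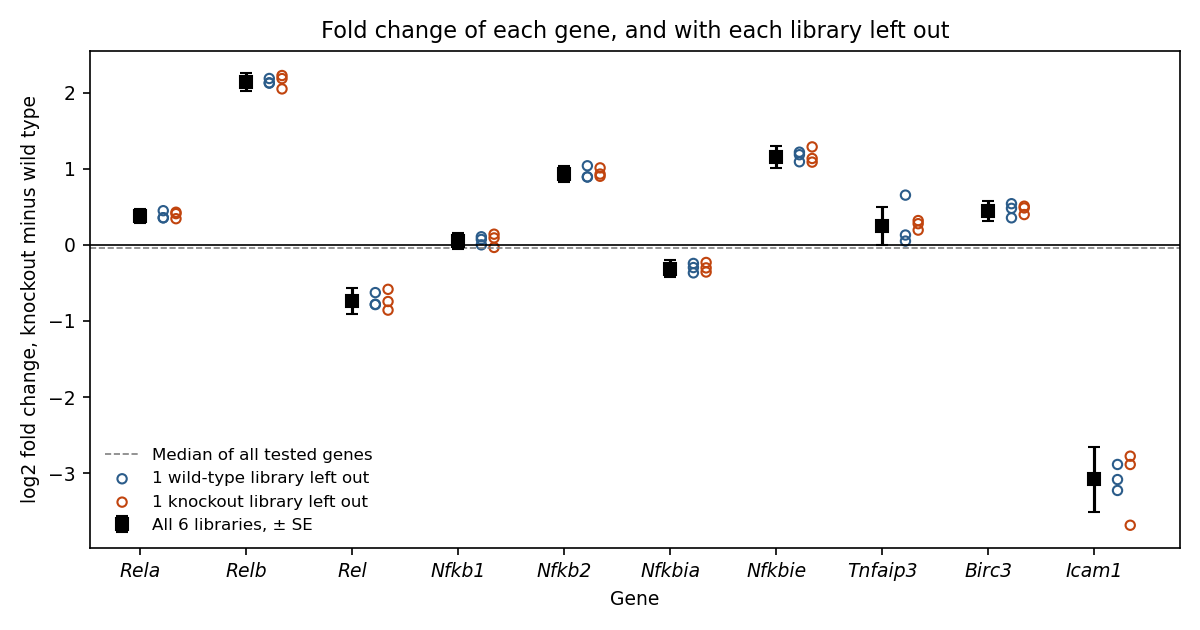
Log2 fold change of each of the 10 genes from all 6 libraries (squares, ± SE) and with 1 library left out (open circles). Tnfaip3 moves from 0.25 to 0.65 without wild-type replicate 3, Icam1 from -3.08 to -3.68 without knockout replicate 1, and Relb stays between 2.05 and 2.22.

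Upstream of NF-kB, 13 of the 36 tested genes of the IKK complex, its activators and its ubiquitin machinery were higher and 13 lower, with a median log2 fold change of 0.13. These shares are near the 30.7% higher and 30.2% lower of all tested genes. With library totals as the only scaling, 9 passed as higher, 13 as lower. The smallest p-values belonged to Rnf31 and Rbck1, which encode the catalytic and an accessory subunit of the ligase that builds linear ubiquitin chains on IKK. Rnf31 rose from 21.3, 21.2 and 21.3 CPM in the wild-type to 50.0, 52.0 and 51.7 CPM in the knockout libraries (log2 fold change 1.27 ± 0.09, adjusted p = 2.32e-06), and Rbck1 had a log2 fold change of 0.86 ± 0.09. Sharpin, the other accessory subunit, was 0.30 ± 0.11 (adjusted p = 0.0408), a call lost without knockout replicate 2 or wild-type replicate 2, with library totals only and with at least 1 CPM in 3 libraries (adjusted p = 0.0618 to 0.248; 0.0249 to 0.248 over all alternatives). The other genes named by p were lower: Irak2, a kinase of interleukin-1 and Toll-like receptor signalling (log2 fold change -1.29 ± 0.16), and Tax1bp1, an A20 adaptor (-0.66 ± 0.09). Of the IKK subunits themselves, Chuk (IKKα) was higher at 0.54 ± 0.12, Ikbkg (NEMO) was lower at -0.61 ± 0.09 and Ikbkb (IKKβ) had 0.13 ± 0.09 (adjusted p = 0.224). Sharpin, Chuk, Ikbkg and Ikbkb were chosen after their values were seen.

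Of 9 tested genes of the non-canonical branch, 2 were higher and 4 lower, a share called of 66.7% that is near the 60.9% of all tested genes. The lower count was 2 without knockout replicate 2 or 3, without wild-type replicate 1 or 2 and with no low-count filter. Traf1, a TRAF adaptor and NF-kB target, rose from 2.75, 3.47 and 5.34 CPM in the wild-type to 39.4, 17.4 and 28.3 CPM in the knockout libraries (log2 fold change 2.90 ± 0.34, adjusted p = 0.000112). Tnfrsf12a, the receptor of the cytokine TWEAK, had 489.8, 333 and 378 CPM in the knockout and 101, 119 and 199.7 CPM in the wild-type libraries (log2 fold change 1.52 ± 0.26). Tnfrsf11a, the receptor RANK, was lower (-1.82 ± 0.22), as was Birc2. The remaining lower genes, Ltbr (the lymphotoxin beta receptor) at -0.25 ± 0.10 and Tnfsf12 (TWEAK) at -0.58 ± 0.23, only just passed (adjusted p = 0.0487 and 0.0484) and were chosen after their values were seen. Map3k14, which encodes NIK, was at 0.34 ± 0.15 on the log2 scale and did not pass (adjusted p = 0.0669; 0.00854 without wild-type replicate 3, and 0.00412 to 0.225 over all alternatives) and was chosen after its value was seen.

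Of 18 tested receptors that signal to NF-kB, 7 were higher and 5 lower, which is 66.7% called beside 60.9% of all tested genes. The lower count was 8 without knockout replicate 1 or without wild-type replicate 3. Tlr2 and Tlr3, receptors of bacterial lipopeptides and double-stranded RNA, had log2 fold changes of 1.92 ± 0.20 and 1.55 ± 0.16. Tlr2 went from 13.8, 12.3 and 8.19 CPM in the wild-type to 52.0, 38.1 and 40.3 CPM in the knockout libraries. Il1r1, the interleukin-1 receptor, was higher at 1.12 ± 0.12, and Nod1, a cytosolic sensor of bacterial peptidoglycan, was lower at -1.35 ± 0.16. The other lower receptors, named after their values were seen, were Tlr5, Tlr6, Tlr7 and Ager, at -1.28, -1.43, -2.91 and -2.09 on the log2 scale. Tlr7, with 2, 7 and 6 knockout counts, passed the filter through the wild-type libraries only.

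Among other known NF-kB targets, 22 of the 31 tested were higher and 3 lower, with a median log2 fold change of 1.16, beside 30.7% higher, 30.2% lower and a median of -0.04 for all tested genes. Of the 31, Cxcl1, Cxcl5, Il6, Lcn2 and Ccl20 had under 10 counts in every wild-type library and passed the filter through the knockout libraries only. All 5 are among the 22 and had to differ, so the count and the median are no support here, and 13 further genes of the list were not tested. The chemokine genes Cxcl5 and Cxcl1 had 872 and 615 counts over the knockout libraries and 17 and 5 over the wild-type libraries. The fitted log2 fold changes were 5.73 ± 0.32 and 6.89 ± 0.46, the latter 7.73 without wild-type replicate 3, which holds 3 of the 5 counts. Ptx3, a secreted pattern-recognition protein, rose from 11.5, 12.3 and 21.0 CPM to 269, 280.2 and 379.6 CPM (log2 fold change 4.38 ± 0.26, adjusted p = 2.15e-06). Tnfaip2, another cytokine-induced gene, rose from 81.1, 84.3 and 94.1 CPM to 299, 224 and 267 CPM (1.61 ± 0.12, adjusted p = 2.84e-06). These 4 genes were named for having the smallest p in their list, so their separation between the groups is a description. The 3 lower targets, named after their values were seen, were the protease gene Mmp3 (-3.42 ± 0.58), the stress-response gene Gadd45b (-0.71 ± 0.14) and Sod2, encoding mitochondrial superoxide dismutase (-0.35 ± 0.10).

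**Figure D5:**
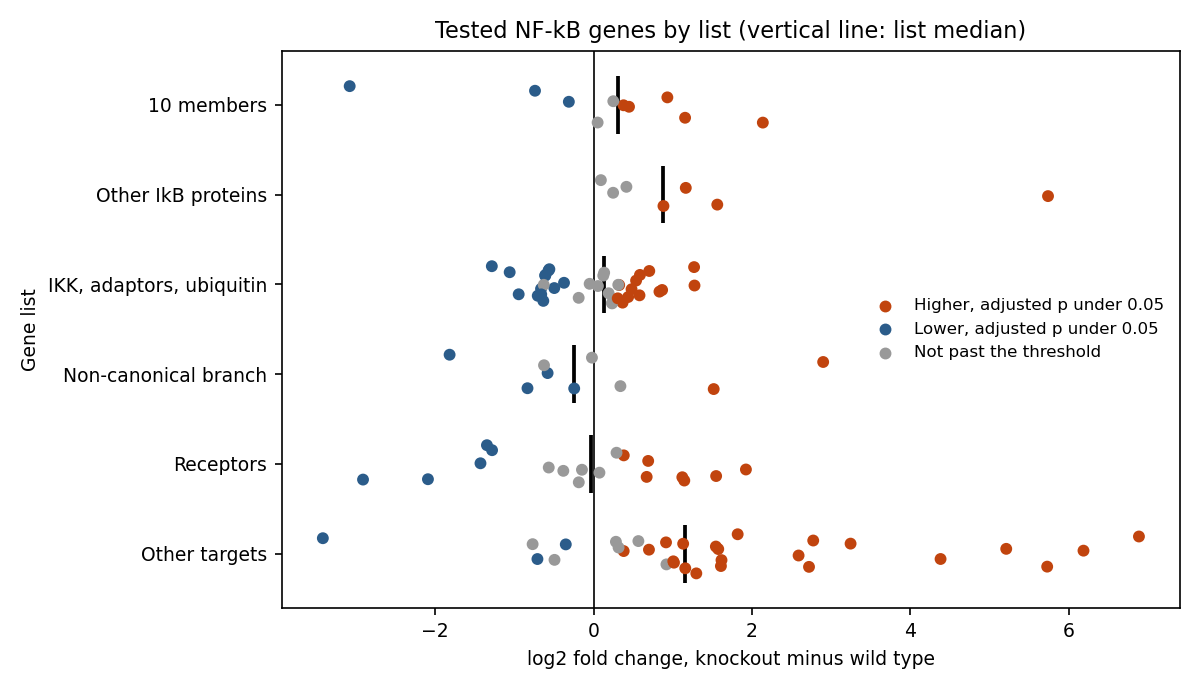
Log2 fold change of each tested gene by list, colored by direction and by whether it passed an adjusted p of 0.05, with list medians as vertical lines; vertical position within a row carries no value. The other targets have a median of 1.16, while the IKK list (0.13) and the receptors (-0.04) lie on both sides of 0.

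Of the 109 other NF-kB genes tested, those whose log2 CPM followed Relb most closely over the 6 libraries were F3, Rnf31 and Cxcl5 (Pearson r = 0.996, 0.992 and 0.991). Those most like Icam1 were Tax1bp1, Xiap and Birc2 (r = 0.989, 0.971 and 0.965). The 6 points fall into the 2 genotype groups, so these values mostly restate the difference between the groups.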

How the data were processed

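The authors deposited raw counts per gene and library in 1 table keyed by NCBI gene ID, per the file headers. Per the labels' protocols, Trizol RNA went into stranded total RNA libraries. Per the submitters' processing notes, STAR 2.5.1b and mm10 were used. How genes were counted, and with which strand setting, is not given in the sources used here. Genes were tested in R 4.3.3 with edgeR 4.0.16 (filterByExpr, TMM scaling, robust quasi-likelihood fit of genotype alone, two-sided) and adjusted over all 15039 genes at a false discovery rate of 0.05. The biological coefficient of variation was 15.5%. Standard errors follow from the F statistic. The tests were also run on simulated data with 200 changed genes. That is far fewer than were called here, so the simulation does not check scaling or calls with this many changes. Counting intervals cover counting error only, since these reads have no molecular identifiers. Positions and promoter sequences are from RefSeq, lengths from GENCODE M21, both on GRCm38, which mm10 denotes.

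The 10 genes, the other lists and the tests were chosen with earlier results of these data known. Named were the 10 genes, up to 4 genes per other list by p, the neighbours of Icam1 and Birc3, the top gene of marker lists and the closest correlates of Relb and Icam1. Alternatives were DESeq2 1.42.0 size factors, library totals only, at least 1 CPM in 3 libraries, no filter, the replicate block, the DESeq2 test, limma-voom (limma 3.58.1), each library or both libraries numbered 3 left out, and 74 structural RNA genes left out.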

Additional observations from a re-analysis of the deposited data

How the results depend on the processing

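Relb, Nfkb2, Nfkbie, Rela, Rel and Icam1 kept their direction and their call under all 15 alternatives run. Nfkb1 never passed, and its log2 fold change was -0.067 with library totals only and -0.034 to 0.14 with each library left out. The sign turned on leaving out knockout replicate 1 (-0.034) or wild-type replicate 1 (-5.89e-05). The calls of Nfkbia, Birc3 and Tnfaip3 changed as given above. With each library left out, 4 to 6 of the 10 genes were higher and 2 to 3 lower. In the other lists these ranges were 4 to 5 higher for the other IkB proteins, 10 to 14 and 11 to 12 for the IKK list, 2 to 3 and 2 to 4 for the non-canonical branch, 5 to 7 and 5 to 8 for receptors, 20 to 25 and 2 to 4 for other targets. With no low-count filter, 2 non-canonical genes were lower, of 11 tested instead of 9. With at least 1 CPM in 3 libraries, 1 gene of the inhibitor of apoptosis family was higher, since 5 of that family were tested instead of 7. The cause of the other changes was not tested.

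Libraries with the same number had deviations from their group means that correlated at 0.0961, 0.0138 and 0.209, and knockout replicate 1 correlated best with wild-type replicate 2 (0.149), so the numbers were not taken as pairs. With the replicate block, 9253 genes were called instead of 9160, and again 5 of the 10 genes were higher and 3 lower. The difference in Relb share was 13.1 to 14.5 percentage points and that in the Nfkbia to Rela ratio -0.438 to -0.302 with each library left out. Depth limits Icam1 most, with 6 to 17 counts per knockout library.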

Other observations

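The inhibitor of apoptosis family, to which Birc3 belongs, had 2 of 7 tested genes higher and 3 lower by edgeR, 71.4% called beside 60.9% of all tested genes. Xiap, the direct caspase inhibitor, fell from 191, 187 and 168 CPM in the wild-type to 126, 123 and 121 CPM in the knockout libraries (log2 fold change -0.56 ± 0.09, adjusted p = 0.000382). Birc2 was lower as given above, and Birc5 (survivin), named after its value was seen, was at -0.56 ± 0.14 (adjusted p = 0.00723). Naip2, a sensor component for bacterial secretion proteins, rose from 4.82, 5.03 and 2.85 CPM to 24.9, 19.7 and 18.5 CPM (2.30 ± 0.22, adjusted p = 1.48e-05), and Naip5 rose from 17 to 57 counts per group (1.82 ± 0.47, adjusted p = 0.00674). Naip5, with 8, 7 and 2 wild-type counts, passed the low-count filter through the knockout libraries only. The Naip genes are near-identical copies on chromosome 13, so reads could have been split among them. Wild-type and knockout ranges did not overlap for 5 of the 7 (Xiap, Birc2, Birc5, Naip2 and Naip5), beside 67.3% of all tested genes.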
